A study of Homo sapiens with 17 samples.

Results

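The 10 tubulin genes described here were 4 alpha tubulins (TUBA1A, TUBA1B, TUBA1C, TUBA4A), 5 beta tubulins (TUBB, TUBB2A, TUBB2B, TUBB3, TUBB6) and 1 gamma tubulin (TUBG1). They were taken by symbol from a table of 23368 genes, and all 10 were found and passed the filter on low counts in every comparison. The table came from acRIP-seq in HEK293T, a line derived from human embryonic kidney. In this assay an antibody to N4-acetylcytidine (ac4C), a modified base of RNA, enriches the transcripts that carry it, and the enriched RNA is sequenced beside the starting RNA. The study asked whether TDP43, an RNA-binding protein encoded by TARDBP, takes part in the acetylation of mRNA by the enzyme NAT10.

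There were 6 groups and 17 libraries. Cells labelled WT gave 3 libraries of input RNA, 3 of anti-ac4C pull-down (IP) and 2 of pull-down with control immunoglobulin G (IgG). Cells labelled siTARDBP, siTDP in the sample titles and siTDP43 here, were transfected with siRNA against TDP43 and gave 3 libraries of each kind. All groups shared the same line and the same selection of polyadenylated RNA. The labels name no control siRNA for the WT cells, so transfection and the loss of TDP43 cannot be told apart, and nothing in them says that replicates came from separate cultures, so the p-values may measure technical spread only.

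Alpha and beta tubulin pair into the dimers that build microtubules, while gamma tubulin sits at the sites from which microtubules start. Vertebrate cells carry several genes, or isotypes, of each class, which code for closely similar proteins and are used in different proportions in different tissues. Tubulin mRNA is also held in check by its own product: when free dimers are plentiful, the factor TTC5 recognises the first residues of an alpha or beta chain as it leaves the ribosome, and the mRNA being translated is degraded.

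The bases that encode those first residues are shown because they are alike within the alpha and within the beta members and differ in the gamma member. Each line gives the first 30 coding bases on hg19, 5′ to 3′, with the first 12 in capitals:
TUBA1A: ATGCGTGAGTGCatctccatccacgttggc
TUBA1B: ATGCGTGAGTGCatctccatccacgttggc
TUBA1C: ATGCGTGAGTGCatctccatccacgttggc
TUBA4A: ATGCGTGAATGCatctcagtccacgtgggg
TUBB: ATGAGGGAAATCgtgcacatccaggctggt
TUBB2A: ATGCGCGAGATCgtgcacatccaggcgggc
TUBB2B: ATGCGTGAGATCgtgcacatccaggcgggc
TUBB3: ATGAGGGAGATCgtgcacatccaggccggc
TUBB6: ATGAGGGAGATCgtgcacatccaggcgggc
TUBG1: ATGCCGAGGGAAatcatcaccctacagttg

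These runs were identical in TUBA1A, TUBA1B and TUBA1C, which lie close together on chromosome 12 at 49578583 to 49582861, 49521567 to 49525304 and 49658865 to 49667113. TUBA4A lies on chromosome 2 at 220115001 to 220118638. Of the beta genes, 3 are on chromosome 6, TUBB at 30688157 to 30693195, TUBB2A at 3153902 to 3157783 and TUBB2B at 3224495 to 3227968. TUBB3 lies on chromosome 16 at 89988417 to 90002505, TUBB6 on chromosome 18 at 12308257 to 12326568 and TUBG1 on chromosome 17 at 40761358 to 40767256. TUBA1A, TUBA1B, TUBA4A, TUBB2A and TUBB2B are read from the minus strand and the others from the plus strand, and in the alpha genes an intron lies within the bases shown.

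The likeness of the genes limits how far their counts can be told apart. Over 1335 coding bases TUBB2A and TUBB2B were 98.2% identical, and TUBA1A and TUBA1B were 97.19% identical over 1353. Of exon windows as long as the sequencing reads, those that occur unchanged in another gene made up 48.5% in TUBB2A, 38.1% in TUBB2B, 17.5% in TUBA1B, 13.6% in TUBA1C and 7.86% in TUBA1A. The share was 4.94% in TUBG1, 1.89% in TUBB3 and 0 in TUBA4A, TUBB and TUBB6. For shorter fragments more is shared: of 50-base windows, 47.3 to 59.4% were shared in the first 5 genes and 25.9% in TUBG1, where the shared bases include those of the overlapping FAM134C. Only uniquely aligned reads were counted, so by these windows levels are least certain for TUBB2A and TUBB2B. The windows covered primary chromosomes only, and TUBB also has copies on alternative haplotypes. Whether TUBB reads were lost to those copies was not tested, a limit on its level, the beta shares and the alpha to beta ratio. Exons of TUBA4A overlap STK16 and those of TUBG1 overlap FAM134C on the opposite strand. The strand setting of the counting and its rule for reads in such overlaps were not given. Those reads may have been counted for either gene or dropped.

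Library totals ran from 24542434 to 36583436 counts in the inputs, 8610070 to 21066215 in the IP and 3013989 to 9466855 in the IgG libraries, with the fewest in siTDP43 IgG. The 10 genes held 0.512 to 0.541% of the counts in WT input and 0.839 to 0.909% in siTDP43 input. TARDBP itself was at 35.5 to 37.2 RPKM in WT input and 23.4 to 25.1 in siTDP43 input, a fitted log2 change of -0.57 ± 0.045 (SE, edgeR adjusted p = 6.55e-13). Most of its mRNA was thus still present in these libraries. The study also checked its TDP43 knockdown by RT-qPCR and western blot, which are not part of these counts. Of 7 markers usual in this line, all had counts in both inputs. Their summed level was 1242 to 1273 CPM (counts scaled to library size) in WT and 633 to 679 in siTDP43. PAX2 was near the floor, at 0.88 CPM in WT and 0.097 in siTDP43 input, and was not tested. Of the 6 markers tested 4 were lower and 2 higher in siTDP43 input, beside 40.6% and 38.6% of all genes. Their part in the results below was not tested. Of 6 genes of blood, liver, pancreas and glia, HBB and PTPRC had no count in either input and the sum stayed at or below 1.71 CPM.

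TUBA1B, a housekeeping alpha isotype, and TUBB, the main beta isotype of dividing cells, led in WT input. Levels are given as RPKM, read counts scaled for exon length and library size on 1 scale for the 17 libraries, and are the only values compared between genes. TUBA1B stood at 1112, 1249 and 1207 RPKM and TUBB at 616, 629.7 and 630.3. Next came TUBA1C (351 to 374 RPKM), TUBA1A (139.6 to 144), TUBG1 (131 to 137) and TUBB2B (45.3 to 52.5). TUBB6 (20.2 to 22.4 RPKM) and TUBB2A (19.4 to 22.8) overlapped, and they were the only neighbours in this order that did. TUBA4A (9.87 to 11.1 RPKM) and the neuronal isotype TUBB3 (4.15 to 4.43) were lowest, so the members spanned from 4.28 ± 0.14 to 1189 ± 70.4 RPKM (mean ± SD, n = 3). In siTDP43 input TUBA1A (702 to 718.5 RPKM) stood above TUBA1C and overlapped TUBB (714 to 751.5), TUBB6 stood above TUBB2B, and TUBA4A was lowest.

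**Figure D1:**
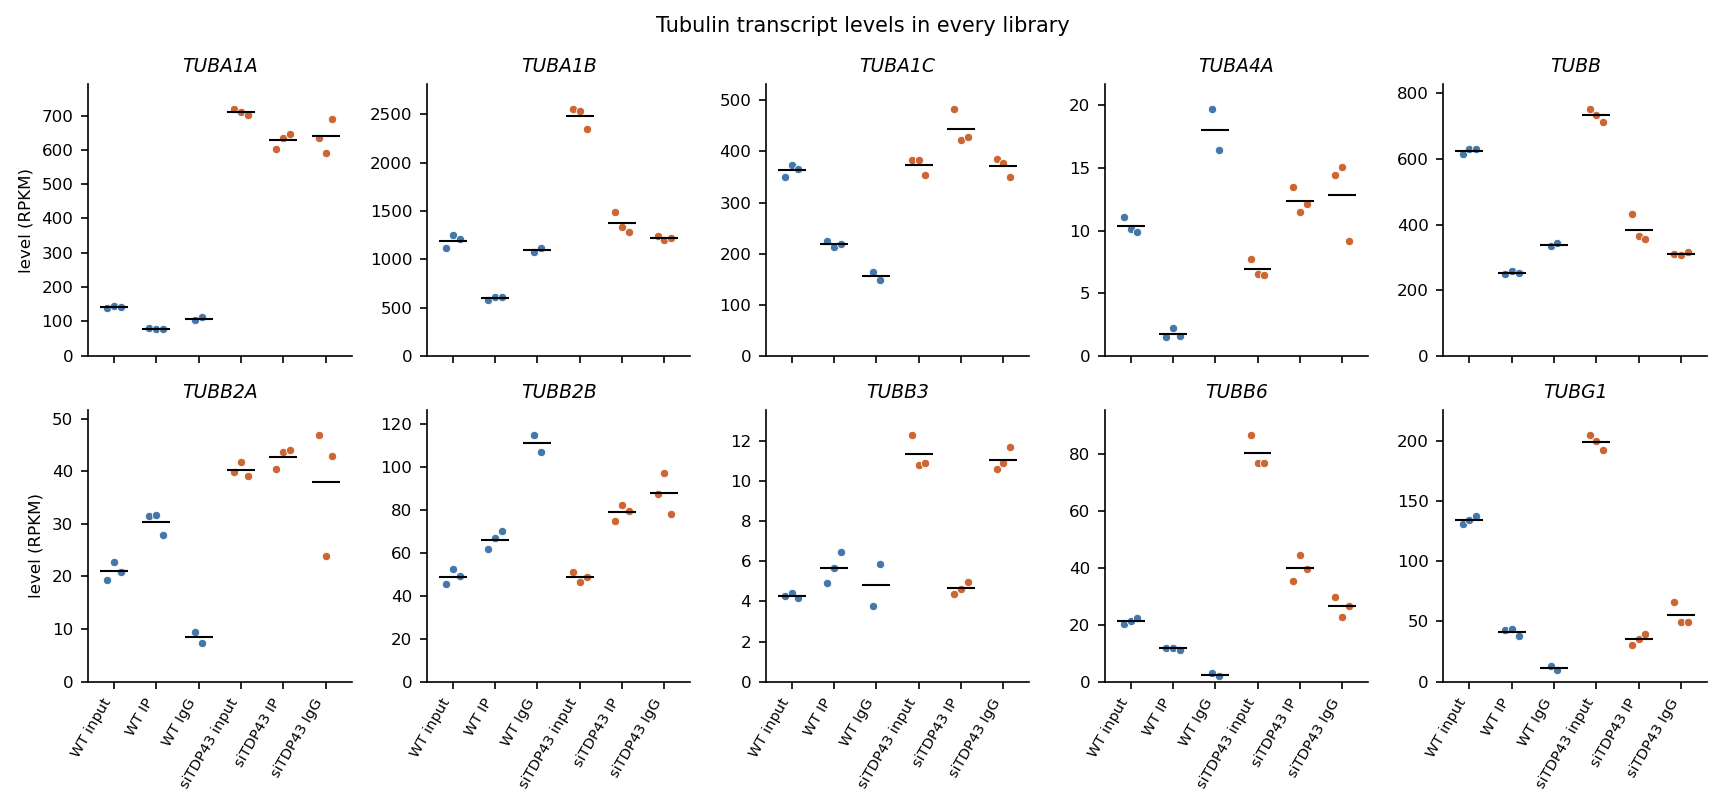
Level of each tubulin transcript in every library. The y axis is RPKM from 0 with its own range in each panel, the x axis lists the 6 groups, each point is 1 library (blue WT, orange siTDP43) and each bar is the group mean. TUBA1A stands at 702 RPKM or more in the siTDP43 inputs against at most 144 in the WT inputs, whereas TUBG1 is highest in both inputs and lowest in WT IgG.

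The inputs asked how tubulin mRNA differed between siTDP43 and WT cells. Of the 10 genes 7 were higher in siTDP43 input, 1 was lower and 2 did not pass (edgeR adjusted p under 0.05), where 38.6% of the 14036 genes tested were higher and 40.6% lower. Their median log2 change was 0.76, beside -0.05 for all genes. With the GC trend of each library removed, 9 were higher and 1 lower, as TUBA1C (log2 0.074) and TUBB2B (0.22) passed as well. These are shares of a library, and in bulk RNA fewer cells that hold a transcript and less of it in each cell cannot be told apart.

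Among the alpha tubulins, TUBA1A, an isotype abundant in developing neurons, differed most. It stood at 139.6, 143.8 and 143.4 RPKM in WT input and at 718.5, 710.4 and 702.1 in siTDP43 input, with a wide gap between the groups. The fit gave 5.01-fold (log2 2.33 ± 0.037 SE, edgeR adjusted p = 2.66e-30), higher than 97.7% of all genes tested. TUBA1B rose from 1112 to 1249 RPKM to 2352 to 2555, or 2.09-fold (log2 1.07 ± 0.040, edgeR adjusted p = 4.60e-21). TUBA1C, the other gene of the chromosome 12 group, stood at 351, 374 and 365 RPKM in WT input and 382, 383 and 354 in siTDP43 input. Those groups overlapped, and its log2 change was 0.04 with a 95% interval of -0.03 to 0.12 (edgeR adjusted p = 0.311). TUBA4A, an alpha isotype that ends without the usual tyrosine, was the only member that fell, from 11.1, 10.2 and 9.87 RPKM to 7.75, 6.51 and 6.48 (log2 -0.58 ± 0.11, edgeR adjusted p = 2.10e-05).

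Among the beta tubulins, TUBB6 and TUBB3 rose most, TUBB rose least of those called higher, and TUBB2B did not pass. TUBB6 stood at 20.2, 21.3 and 22.4 RPKM in WT input and 86.9, 77.1 and 77.1 in siTDP43 input, a 3.78-fold rise (log2 1.92 ± 0.056, edgeR adjusted p = 8.75e-24). TUBB3 went from 4.25, 4.43 and 4.15 RPKM to 12.3, 10.8 and 10.9, or 2.66-fold (log2 1.41 ± 0.10, edgeR adjusted p = 5.64e-14). The groups were clear of each other for both genes. Of 6 other neuronal genes, none above 5.30 CPM in an input library, 3 were expressed enough to test. Of these 0 were higher and 2 were lower, beside 38.6% and 40.6% of all genes, and nothing is read from so few. The summed level of the 6 was 10.5 to 11.0 CPM in WT and 2.40 to 4.75 in siTDP43 input. SYN1 had no count in either, and DCX had none in WT and 0.452 CPM in siTDP43 input. The neurofilament genes NEFL and NEFM, also genes of neurons but counted above as usual in this line, parted, with NEFL at 65.2 CPM in WT and 186 in siTDP43 input and NEFM at 66.1 and 41.8.

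TUBB2A rose from 19.4, 22.8 and 20.9 RPKM to 39.9, 41.7 and 39.1 (log2 0.94 ± 0.064, edgeR adjusted p = 2.27e-14). Its near copy TUBB2B stood at 45.3, 52.5 and 49.1 RPKM in WT input and 51.2, 46.5 and 48.7 in siTDP43 input. The groups overlapped, and the interval of the log2 change ran from -0.10 to 0.10 (edgeR adjusted p = 0.999), although with the GC trend removed TUBB2B was higher by 0.22 (edgeR adjusted p = 0.000122). TUBB rose only from 616 to 630.3 RPKM to 714 to 751.5, or 1.18-fold (log2 0.23 ± 0.034, edgeR adjusted p = 2.80e-07). TUBG1 rose from 130.6, 133.8 and 137.4 RPKM to 205, 199 and 192 (log2 0.58 ± 0.040, edgeR adjusted p = 2.48e-14).

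The make-up of each class differed between the inputs, with larger shares of TUBA1A and TUBB6 and smaller shares of TUBA1C and TUBB in siTDP43 input. A smaller share was not a lower level here: TUBB itself was higher in siTDP43 input, and the TUBA1C levels overlapped. Each member's share was taken over the alpha or the beta members alone, per exon length and within a library, so it does not depend on how libraries are scaled. TUBA1A made up 8.65, 8.09 and 8.31% of alpha tubulin in WT input and 19.6, 19.5 and 20.6% in siTDP43 input. TUBA1C went the other way, from 21.3% ± 0.37 to 10.5% ± 0.085 (SD, n = 3), and TUBA4A from 0.610% ± 0.067 to 0.193% ± 0.016. The TUBA1B shares overlapped, with 68.9 to 70.3% and 68.9 to 69.7%.

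In the beta class the mean share of TUBB went from 86.8% ± 0.60 to 80.2% ± 0.43, and TUBB2B from 6.79% ± 0.38 to 5.34% ± 0.20. TUBB6 went from 2.96% ± 0.11 to 8.79% ± 0.39, TUBB2A from 2.92% ± 0.19 to 4.41% ± 0.18 and TUBB3 from 0.593% ± 0.019 to 1.24% ± 0.061. Shares of a class add up to a fixed whole, so they do not move independently, and 38.6% of all genes were higher and 40.6% lower in siTDP43 input. For 8 of the 9 shares the libraries of the 2 genotypes did not overlap. An exact two-sided permutation test of 3 against 3 libraries gave p = 0.1 for those 8, the smallest it can give, and p = 0.5 for TUBA1B (Benjamini-Hochberg 0.113 and 0.5 over 9 shares), so none could pass. Summed alpha tubulin was 1706 ± 83.8 RPKM in WT input and 3571 ± 137 in siTDP43 input, and summed beta tubulin 721 ± 13.6 and 914 ± 26.3. The ratio of alpha to beta was 2.29 to 2.43 in WT input and 3.84 to 3.99 in siTDP43 input, over these members only. TUBB4B, an abundant beta tubulin that is no member, stood at 144 to 152 RPKM in WT input and 401 to 447 in siTDP43 input. Counted among the beta tubulins, it brought the ratio to 1.90 to 2.01 and 2.64 to 2.74, and the TUBB share to 72.0% ± 0.61 and 54.9% ± 0.70. Of the 9 shares of members, 8 again did not overlap, nor did the added share of TUBB4B (16.6 to 17.2% and 31.1 to 32.2%).

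**Figure D2:**
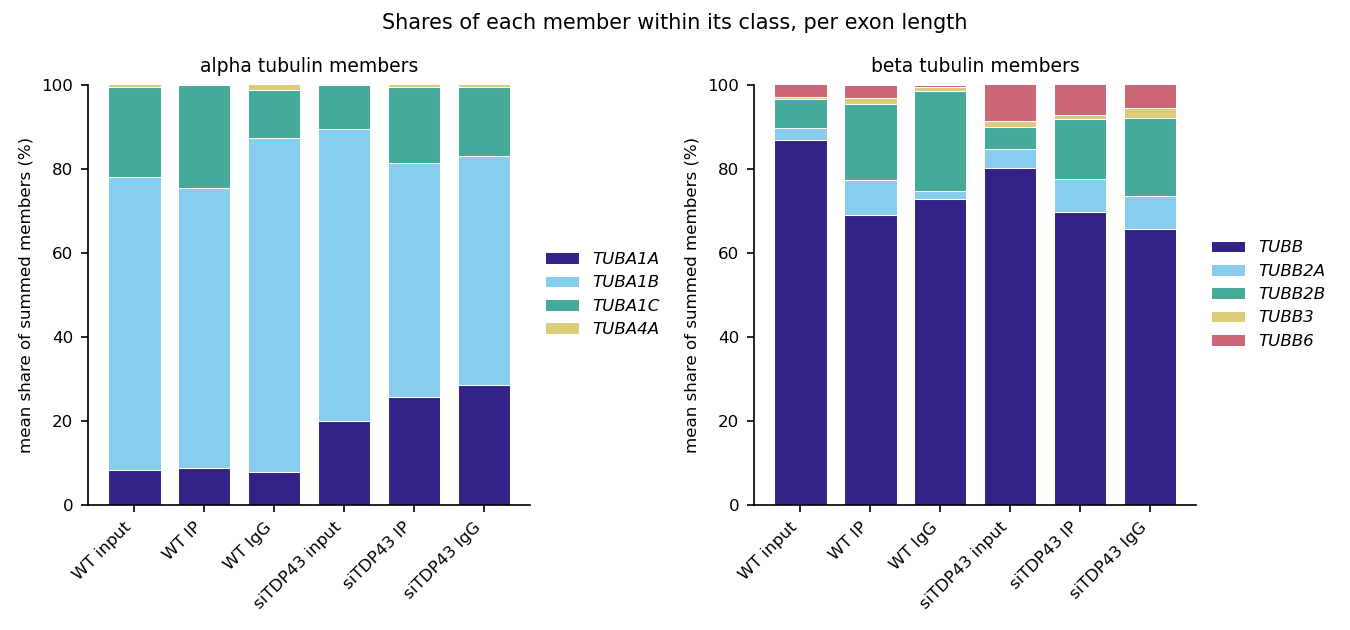
Mean share of each member within the summed alpha (left) or beta (right) tubulin members, in percent per exon length, on the y axis from 0 to 100, for the 6 groups on the x axis. Each bar averages 3 libraries, or 2 for WT IgG. TUBA1A takes 8.35% of alpha tubulin in WT input and 19.9% in siTDP43 input, while TUBB takes 86.8% and 80.2% of beta tubulin.

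In WT cells the IP was set against both controls, since enrichment over input alone does not separate the antibody from the pull-down. The joint rule used here asked for an IP above both input and IgG, with edgeR adjusted p under 0.05 and more than 2-fold against each. Some tubulin genes outside the members met it, as given below. None of the 10 members did, beside 15.6% of the 14751 genes tested. With 10 genes, a count of 0 is not far from that share. The count was also 0 at an unadjusted p under 0.05, by DESeq2 and by limma. Against input 0 members were higher and 3 lower (30.2% and 27.3% of all genes), with a median log2 of -0.85 beside 0.01 for all genes. Against IgG 3 were higher and 1 lower (35.2% and 17.8%), with a median of -0.11 beside 0.29.

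TUBA4A stood apart, being at least 2-fold lower in the IP than in both controls. Its libraries held 1.51, 2.24 and 1.56 RPKM in the IP, 11.1, 10.2 and 9.87 in input and 19.7 and 16.4 in IgG. The IP lay below every library of both controls, 5.81-fold under input (log2 -2.54 ± 0.16) and 10.3-fold under IgG (log2 -3.37 ± 0.18, edgeR adjusted p = 3.85e-13 and 3.22e-14). The other alpha genes were lower in the IP than in input by smaller steps, TUBA1A by 1.80-fold, TUBA1B by 1.98-fold and TUBA1C by 1.65-fold. Against IgG they parted: TUBA1B was at 574 to 614 RPKM in the IP and 1077 to 1117 in IgG (log2 -0.90 ± 0.054), whereas TUBA1C was at 214 to 224 in the IP and 149 to 164 in IgG (log2 0.47 ± 0.058).

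The WT IP was more than 2-fold above IgG for 3 members, TUBG1, TUBB6 and TUBB2A. Each was more than 2-fold lower in IgG than in input, and the IgG level enters the ratio itself. TUBA1C was also more than 2-fold lower in IgG than in input but did not pass. TUBG1 stood at 130.6, 133.8 and 137.4 RPKM in WT input, 42.8, 43.6 and 38.2 in the IP and 13.2 and 9.81 in IgG. The IP was 3.55-fold above IgG (log2 1.83 ± 0.10, edgeR adjusted p = 5.79e-14) and 3.21-fold below input (log2 -1.68 ± 0.068, edgeR adjusted p = 4.95e-17), and IgG held 11.4-fold less than input. TUBB6 behaved alike, with 11.98, 11.89 and 11.26 RPKM in the IP and 2.99 and 1.93 in IgG, from 34 and 56 counts, or 4.67-fold over IgG (edgeR adjusted p = 2.52e-11), and 1.81-fold under input. TUBB2A was the only member above both controls by adjusted p alone, 1.45-fold over input (edgeR adjusted p = 7.62e-06) and 3.54-fold over IgG (edgeR adjusted p = 6.88e-12), and 25.5% of all genes were. Its libraries held 31.5, 31.8 and 27.9 RPKM in the IP, 9.53 and 7.37 in IgG, and 19.4 to 22.8 in input. With the GC trend of each library removed, the change of TUBB2A over input was -0.08 on the log2 scale and lost its call.

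TUBB was at 249.8, 259 and 251 RPKM in the WT IP, below input by 2.46-fold and below IgG (335 and 343 RPKM) by 1.35-fold. TUBB2B, in contrast to TUBB2A, was highest in IgG, at 115 and 107 RPKM, against 61.8, 66.8 and 70.2 in the IP. It was therefore above input (log2 0.44 ± 0.063) and below IgG (log2 -0.77 ± 0.071, edgeR adjusted p = 7.54e-10). TUBB3 lay within 3.77 to 6.47 RPKM in all WT libraries of IP and IgG, from 78 to 293 counts, and did not differ between them by the test (log2 0.23, 95% interval -0.16 to 0.61, edgeR adjusted p = 0.288). Between IgG and input 1 member was higher and 4 were lower in IgG by more than 2-fold (24.4% and 36.6% of all genes).

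In siTDP43 cells, too, 0 members were above both controls (10.3% of 12746 genes tested), also at an unadjusted p under 0.05, by DESeq2 and by limma. Against input 0 were higher and 2 lower (26.8% and 25.4% of all genes, with a median log2 of -0.36 beside -0.09), and against IgG 0 were higher and 1 lower (34.0% and 15.0%, with a median of -0.004 beside 0.33). On total counts 5 members instead of 2 were lower than input. Fits scale their own libraries, so the fitted log2 change was 0.15 to 0.16 above that of the printed levels for siTDP43 IP over input, 0.22 to 0.24 above for IgG over input and 0.07 to 0.08 below for IP over IgG. In the WT and input comparisons the gap was under 0.04.

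TUBB3 was the member more than 2-fold below both controls here. It stood at 12.3, 10.8 and 10.9 RPKM in siTDP43 input and 10.6, 10.9 and 11.7 in IgG but at 4.37, 4.65 and 4.97 in the IP. These levels came from 54 to 66 counts in IgG and 80 to 118 in the IP. The IP was 2.20-fold under input (log2 -1.13 ± 0.17) and 2.51-fold under IgG (log2 -1.33 ± 0.20, edgeR adjusted p = 2.08e-06 and 3.29e-06). By limma on log2(FPKM + 1) its change over IgG was -0.95, short of 2-fold. TUBG1 was the other gene more than 2-fold below input, at 30.2, 35.6 and 39.5 RPKM in the IP against 192 to 205 in input, 5.11-fold lower (log2 -2.35 ± 0.10, edgeR adjusted p = 3.45e-15). In contrast to WT cells it was also below IgG, which held 66.2, 49.8 and 49.8 RPKM (log2 -0.74 ± 0.12, edgeR adjusted p = 7.39e-06).

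TUBA4A was at 13.5, 11.4 and 12.1 RPKM in the siTDP43 IP, 7.75, 6.51 and 6.48 in input and 14.4, 15.1 and 9.15 in IgG. The IP was above every input library, 1.99-fold in the fit (log2 0.99 ± 0.19, edgeR adjusted p = 5.69e-05), and overlapped IgG. That fold is at the edge of the rule: TUBA4A passed without siTDP43 IP replicate 2 (log2 1.04), without siTDP43 IP replicate 3 (1.01) and without siTDP43 input replicate 1 (1.07). TUBA1A stood at 603.5 to 646 RPKM in the IP and 591 to 691 in IgG, and TUBB2A at 40.4 to 44.2 and 24.0 to 46.9, and both genes overlapped between the pull-downs. TUBA1C was above both controls by adjusted p alone, by 1.33-fold over input and 1.14-fold over IgG (edgeR adjusted p = 3.21e-06 and 0.0110), which 16.9% of all genes were, but over IgG its value was -0.03 once the GC trend was removed. Between IgG and input 2 members were higher and 3 lower in IgG (24.7% and 41.0% of all genes), and without siTDP43 IgG replicate 2 the 2 became 0.

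**Figure D3:**
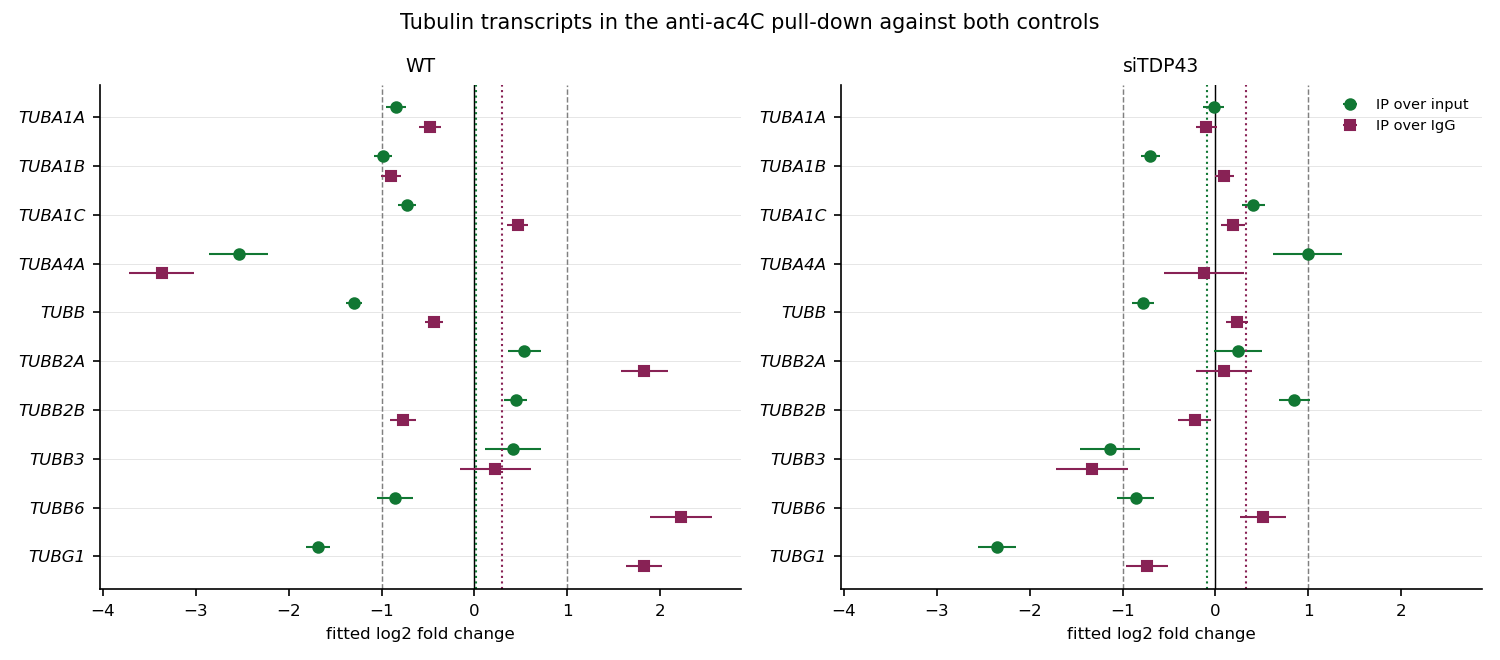
Fitted log2 fold change of IP over input (green circles) and of IP over IgG (purple squares) on the x axis for the 10 genes on the y axis, in WT (left) and siTDP43 cells (right). Whiskers are 95% intervals from the edgeR fit, dashed lines mark 2-fold, and dotted lines the median of all genes tested. TUBA4A lies at -2.54 and -3.37 in WT and at 0.99 and -0.12 in siTDP43 cells, and no gene has both of its symbols right of the dashed line at 1.

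Whether enrichment itself differed between the genotypes was asked with an interaction term in 1 fit of all 17 libraries. For IP over input 5 members were higher in siTDP43 cells and 3 lower (31.5% and 36.3% of 15165 genes), with a median of 0.20 on the log2 scale beside -0.19. For IP over IgG 5 were higher and 5 lower (34.9% and 25.9%), with a median of 0.10 beside 0.24. Both use the same IP libraries, and the first also the inputs compared above, so they are not independent of each other. On total counts the split over input turned from 5 higher and 3 lower to 3 higher and 5 lower, while the median of all genes moved by -0.29.

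TUBA4A gained most against both controls, by 3.38 ± 0.25 over input and 3.30 ± 0.29 over IgG (log2, edgeR adjusted p = 2.07e-14 and 1.31e-12). The values behind it are those above, with the WT IP at 1.51 to 2.24 RPKM, from 52 to 81 counts, as the lowest of its 6 groups. TUBA1A (0.68 and 0.43), TUBB (0.37 and 0.73) and TUBB2B (0.26 and 0.60) were also higher against both controls. TUBB3 and TUBG1 were lower against both, TUBB3 at -1.70 ± 0.23 and -1.50 ± 0.28 and TUBG1 at -0.82 ± 0.12 and -2.51 ± 0.16 (edgeR adjusted p at most 1.56e-05). TUBB2A was lower too (-0.45 and -1.68). TUBA1C moved one way over input (0.99 ± 0.085) and the other over IgG (-0.22 ± 0.093, edgeR adjusted p = 0.0370). TUBA1B and TUBB6 passed over IgG alone, at 1.05 ± 0.080 and -1.66 ± 0.22, and stood at 0.14 and -0.15 over input (edgeR adjusted p = 0.105 and 0.354).

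Some of these calls were weak. TUBB2B over input lost its call without WT IP replicate 1 or 2, WT input replicate 2 or 3, siTDP43 IP replicate 2 or siTDP43 input replicate 2 or 3 (log2 0.19 to 0.26). TUBB2A over input lost it without WT input replicate 1 (-0.39). TUBA1C over IgG lost it without WT IP replicate 1, WT IgG replicate 2, WT input replicate 2, siTDP43 IP replicate 2 or 3, or siTDP43 IgG replicate 1 or 2 (-0.16 to -0.21). On total counts TUBB over input was 0.074 and TUBB2B -0.035, and both lost the call. TUBB2B over input also lost it by DESeq2 (0.20, DESeq2 adjusted p = 0.0946) and in edgeR with DESeq2 size factors (0.20, edgeR adjusted p = 0.0975). With the GC trend removed, TUBB2A over input (-0.19) and TUBA1A over IgG (0.12) lost theirs, and TUBA1B over input (0.36) gained one.

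**Figure D4:**
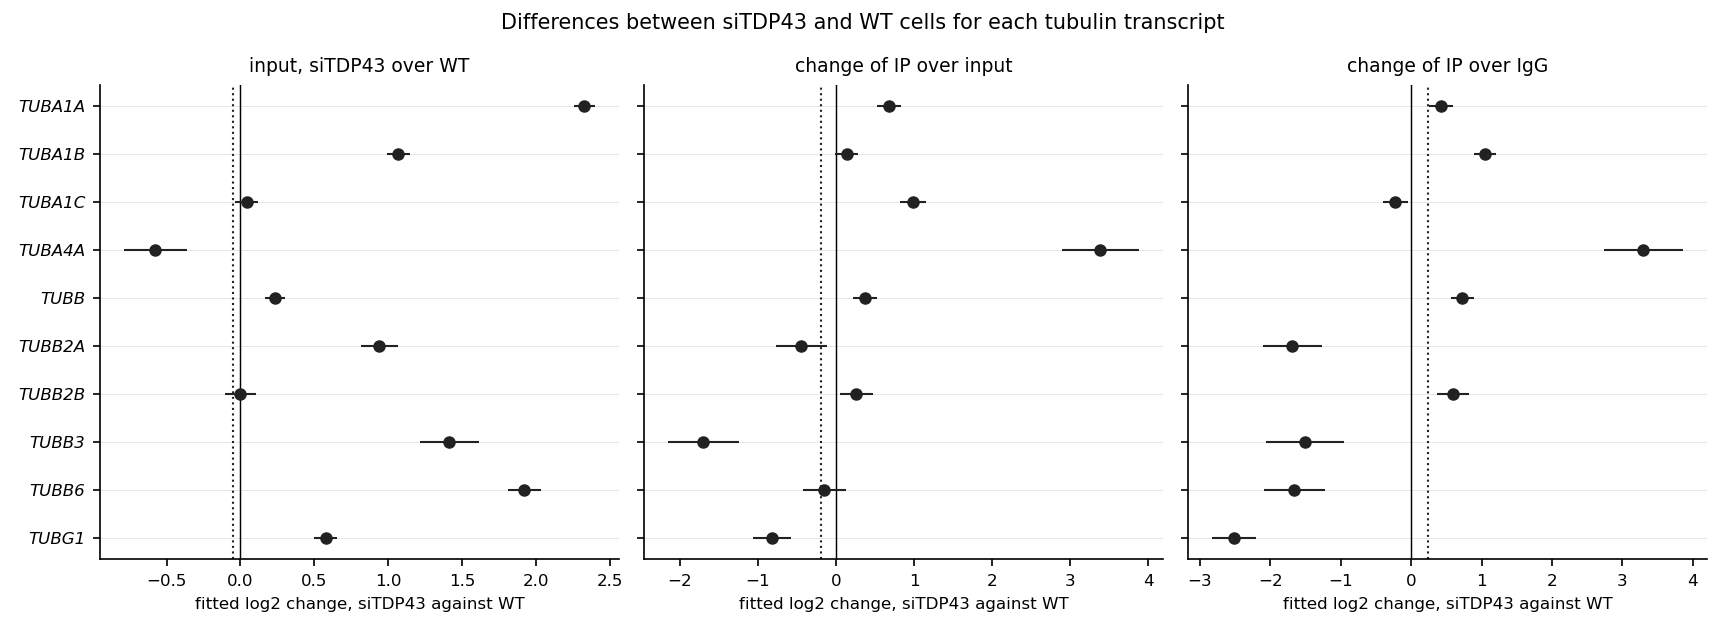
Fitted log2 change between siTDP43 and WT cells on the x axis, which has its own range in each panel, for the 10 genes on the y axis: the inputs (left), IP over input (middle) and IP over IgG (right). Points are edgeR estimates with 95% intervals, and dotted lines are the median of all genes tested. TUBA1A leads the left panel at 2.33 and TUBA4A the others at 3.38 and 3.30, with TUBG1 lowest in the right panel at -2.51.

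The exon sequences were searched on the sense strand for 3 motifs, written here as DNA: one the study linked to ac4C, one it linked to TDP43, and a plain TG repeat. TCCCAGCT, the motif of ac4C peaks, was in 0 of the 10 genes, beside 16.9% of 23346 genes and 12.99% of 6426 genes with 1400 to 2600 exon bases. TGTGCG, the motif linked to TDP43, was in 4 members (26.2% and 22.8%), and the repeat TGTGTG, of the kind TDP43 binds, in 6 (58.1% and 52.6%). TUBA4A and TUBB held none of them. The coding sites of 4 beta genes are shown because their surrounding bases are alike, on hg19 with the motif in capitals:
TUBB2A: aagacggccgTGTGCGacatcccgcc
TUBB2B: aagacggccgTGTGCGacatcccgcc
TUBB3: aaggtggccgTGTGTGacatcccgcc
TUBB6: aaggtggccgTGTGCGacatcccgcc

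The stretches of TUBB2A and TUBB2B, at chr6:3154362-3154387 and chr6:3225250-3225275 on the minus strand, were identical. TUBB3 at chr16:90001907-90001932 and TUBB6 at chr18:12325836-12325861, both on the plus strand, differed from each other within the motif. TUBG1 also held 1 TGTGCG and 1 TGTGTG in its coding bases, and TUBB2B a TGTGTG 5′ and a TGTGCG 3′ of them. A match of letters is a description and says nothing of binding.

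Across the 17 libraries TUBA1B and TUBB were the pair of members most alike, with a root mean square difference of 0.38 between their row-centred log2 CPM, and TUBA4A and TUBG1 the least alike (1.71). Of 10140 genes with a mean of at least 100 counts, GDI2, EIF3I and RDH11 were nearest to TUBA1B (0.14, 0.15 and 0.15), and P4HB, HSPA4 and HSPA9 to TUBB (0.13 each). The median gene was at 1.11 from TUBA1B and 1.04 from TUBB. The 17 libraries come from 6 groups, so these points are not independent.

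The genes that make, fold and use tubulin moved both ways in siTDP43 input, where 38.6% of all genes were higher and 40.6% lower with a median of -0.05. Counts in the smaller lists are few against that background, and nothing particular to a list is read from them. Of 14 subunits of the CCT chaperonin and prefoldin, which fold new tubulin, 10 were higher and 3 lower, with a median log2 change of 0.46. Of these CCT2 rose by 1.24 and VBP1 by 1.51, while PFDN2 stood at -1.36. Of 8 cofactors and regulators of the dimer 4 were higher and 3 lower (median 0.22): TTC5, the factor of tubulin autoregulation, rose by 1.17 ± 0.049 and the cofactor TBCE by 1.35, whereas TBCA fell by 0.90 and ARL2 by 0.87. Of 9 partners of gamma tubulin in the ring complex 3 were higher and 5 lower (median -0.15), and the near copies MZT2A and MZT2B, which may share reads, stood at -2.28 and -2.25. Of 13 further tubulin genes 7 were expressed enough to test, 4 higher and 3 lower, among them the widely expressed TUBB4B at 1.52 and TUBG2, the second gamma gene, at -1.32. Enzymes that modify tubulin were higher in 3 and lower in 8 of 16, and microtubule-binding proteins higher in 10 and lower in 7 of 19.

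Some of these genes did meet the joint rule, above input and above IgG, that no tubulin member met. In WT cells 6 of 19 microtubule-binding proteins passed (MAP1A, MAP2, MAP4, MAP7, CLIP1 and CLASP1), and 3 of 8 further tubulins (TUBA3D, TUBA8 and TUBB4A), 1 of 14 chaperonin subunits (PFDN6), 1 of 16 modifying enzymes (TTLL3), 0 of 8 cofactors and 0 of 9 ring complex partners, beside 15.6% of all genes. TUBA3D had at most 36 counts in a WT IP library and at most 4 in input. TUBA8 had 70 to 80 counts in the WT IP, 9 to 16 in input and 2 to 4 in IgG. TUBB4A, a beta isotype of brain, was at 25.0 ± 1.0 RPKM in the WT IP, 10.1 ± 0.59 in input and 6.71 ± 1.5 in IgG. In siTDP43 cells 1 of 18 microtubule-binding proteins passed (MAP1A), with 1 of 8 cofactors (TBCD), 1 of 14 modifying enzymes (TTLL11) and 0 in the other 3 lists, beside 10.3%. The log2 change of MAP1A there was 8.04 ± 1.8 over IgG and 1.05 ± 0.45 over input, with IgG at -6.99 ± 2.1 against input.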

How the data were processed

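The authors made Smart-seq2 libraries of polyadenylated HEK293T RNA and its pull-downs, trimmed reads with Trim Galore 0.6.7, aligned them with STAR 2.7.10a to hg19, per the study's methods, and counted unique reads per gene with featureCounts 2.0.2. Tool versions are from the submitters' processing notes, which list mm10 as the build. The deposited table holds raw counts. From 81.3 to 95.9% of counts from 1 to 20 were even, so mates appear to have been counted singly. There were no molecular identifiers. No spike-in values entered the analysis, and every enrichment is therefore relative to the rest of its library.

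Groups came from sample titles. The test on counts was that of edgeR 4.0.16 under R 4.3.3 (quasi-likelihood F test, two-sided, TMM, filterByExpr with a minimum count of 10, Benjamini-Hochberg over all genes tested) in 6 input, 8 WT, 9 siTDP43 or all 17 libraries. An adjusted p under 0.05 was required, with a fold above 2 for comparisons within a genotype, and the script was tested on simulated data. RPKM used exon length on 1 chromosome, since the deposited length of TUBB (19865) also counts its copies on alternative haplotypes (2483 without them). Alternatives were DESeq2 1.42.0, its size factors, total counts, other filters, a replicate block, 1 fit of all libraries, halved counts, removal of a GC trend, limma 3.58.1 on log2(FPKM + 1), other lengths for shares, and leaving out each library. The joint rule was run under the same alternatives, and TUBB4B was added to the beta tubulins, both choices made after seeing the data. The study's own classes of acetylated transcripts, defined by other tests and folds, were not used. All 10 members are named. From each other list, up to 2 called genes per direction could be named, those that moved farthest, if they averaged 100 counts or more and their groups were apart, as well as genes that met the joint rule. Intervals are 95% normal intervals from the SE. Members and lists were chosen with earlier results of these data known. Some motif sites are not reported here.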

Additional observations from a re-analysis of the deposited data

Results flagged for a closer look

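The results here are those in which the effect of the pull-down differed between siTDP43 and WT cells by the test of the difference itself, the interaction over 17 libraries. They are given as the log2 change of enrichment, siTDP43 against WT. Such a ratio moves with the control as well as with the IP. For IP over input these were TUBA4A at 3.38, TUBA1C at 0.99, TUBA1A at 0.68, TUBB at 0.37, TUBB2B at 0.26, TUBB2A at -0.45, TUBG1 at -0.82 and TUBB3 at -1.70. For IP over IgG they were TUBA4A at 3.30, TUBA1B at 1.05, TUBB at 0.73, TUBB2B at 0.60, TUBA1A at 0.43, TUBA1C at -0.22, TUBB3 at -1.50, TUBB6 at -1.66, TUBB2A at -1.68 and TUBG1 at -2.51. Differences of this kind were common: among all genes 31.5% were higher and 36.3% lower for IP over input, and 34.9% and 25.9% for IP over IgG.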

How the results depend on the processing

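Of the counts of members called, 387 values under the alternatives stayed within 1.5 times of those reported and 18 did not. Of values for single genes 1761 kept direction and call, 55 changed sign, 34 lost a call and 30 gained one. With the GC trend removed, 9 members instead of 7 were higher in the inputs, 5 members instead of 3 were lower for WT IP over input and 3 instead of 1 for WT IP over IgG. On total counts and by limma on log2(FPKM + 1), 5 instead of 2 were lower for siTDP43 IP over input, 0 instead of 2 were higher for siTDP43 IgG over input (also with all libraries in 1 fit), and the change of IP over input split into 3 higher and 5 lower. By limma 0 instead of 1 was lower for siTDP43 IP over IgG. When genes had to average 50 counts (the stricter filter), and when counts were halved, 1 member instead of 0, TUBA4A, was higher for siTDP43 IP over input. Total counts moved the median of all genes by -0.34 for siTDP43 IP over input, -0.55 for siTDP43 IgG over input, 0.21 for siTDP43 IP over IgG and 0.13 for WT IP over IgG. One fit of all libraries moved it by -0.26 and -0.54 for the first 2 of these, and GC removal by -0.33 for siTDP43 IP over IgG and -0.39 for the change of IP over IgG. The cause was not tested.

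Leaving out each library in turn gave, for higher and lower members, 7 to 8 and 1 to 1 in the inputs, 0 to 0 and 3 to 4 for WT IP over input, 3 to 3 and 1 to 1 for WT IP over IgG, and 1 to 1 and 4 to 4 for WT IgG over input. In siTDP43 cells it gave 0 to 1 and 2 to 2 for IP over input, 0 to 0 and 1 to 1 for IP over IgG, and 0 to 2 and 2 to 3 for IgG over input. The change of enrichment gave 4 to 6 and 2 to 3 over input and 5 to 5 and 4 to 5 over IgG. The shares that did not overlap were 8 to 9, and the members above both controls 0 to 0. Where 1 WT IgG library was left, it was assumed to vary like the other groups. TUBA1B passed 2-fold for WT IP over input without WT input replicate 1 (log2 -1.04), and TUBA1C passed in the inputs without siTDP43 input replicate 3 (0.08). Without siTDP43 IgG replicate 2, TUBA4A and TUBB2B were both at 0.98 for siTDP43 IgG over input. TUBB missed 2-fold there without siTDP43 IP replicate 3 (-0.997), and TUBA1B passed for the change of IP over input without WT input replicate 1 (0.19) or siTDP43 IP replicate 3 (0.18). Deviations of same-numbered libraries were hardly correlated (-0.026 to 0.064), which does not settle whether those libraries shared a sample. A fit with the replicate block changed no call, with 7 members higher and 1 lower in the inputs, 0 and 3 for WT IP over input, and 5 and 5 for the change of IP over IgG.

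Signs turned as follows, in log2. In the inputs, TUBA1C was -0.047 on total counts, -0.0039 with the stricter filter and -0.048 by limma, and TUBB2B -0.091, -0.048 and -0.087, with -0.0051 in 1 fit of all libraries, -0.012 with halved counts, and -0.054 to 0.051 without each library. With GC removed, WT IP over input was -0.079 for TUBB2A and -0.59 for TUBB3, WT IP over IgG -0.37 for TUBB3 (-0.061 to 0.58 without each library), and WT IgG over input 0.021 for TUBA1B and -0.22 for TUBB3 (-0.16 to 0.47). For siTDP43 IP over input, TUBA1A was 0.063 with the stricter filter, 0.036 with GC removed and -0.039 to 0.020 without each library, and TUBB2A -0.096 on total counts, -0.16 with GC removed and -0.093 by limma. For siTDP43 IP over IgG, total counts and limma gave 0.11 and 0.12 for TUBA1A and 0.084 and 0.097 for TUBA4A (-0.33 to 0.0032 without each library), GC removal -0.051 for TUBA1B, -0.033 for TUBA1C and -0.032 for TUBB, and TUBB2A ran from -0.14 to 0.27 without each library. For siTDP43 IgG over input, total counts, 1 fit of all libraries and limma gave -0.47, -0.15 and -0.47 for TUBA1A, -0.33, -0.010 and -0.33 for TUBA1C, -0.40, -0.075 and -0.45 for TUBB2A, and -0.35, -0.034 and -0.32 for TUBB3. GC removal there gave -0.22 for TUBB2A and -0.74 for TUBB3, and TUBB2A ran from -0.039 to 0.37 without each library. The change of IP over input was -0.16 and -0.16 for TUBA1B and -0.035 and -0.036 for TUBB2B on total counts and by limma, and 0.10 for TUBB6 with GC removed. The TUBA1B share differed by 0.258 percentage points with lengths of unshared windows, and by -0.667 to 0.0243 without each library. Few counts limit TUBA4A in the WT IP (52 to 81) and TUBB6 in WT IgG (34 to 56). In siTDP43 IgG they limit TUBA4A (38 to 58) and TUBB3 (54 to 66).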
